A study of Mus musculus with 6 samples.

Results

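The receptor system for interleukin-4 (IL-4) and interleukin-13 (IL-13) is described here through 10 mouse genes chosen by name: the receptor chains Il4ra, Il2rg and Il13ra1, the kinases Jak1, Jak3 and Tyk2, the transcription factor gene Stat6, the adaptor gene Irs2, and the brakes Socs1 and Ptpn6. They were chosen with earlier results of these data known. All 10 were found among the 54532 gene identifiers of the deposited tables. Of these, 9 passed a filter of a mean of at least 1 FPKM (fragments per kilobase of exon, scaled to the library's total), and Irs2 did not. The series asked how PGAM5, a phosphatase of the mitochondrial membrane, bears on the anti-inflammatory state of macrophages. It used iBMDM, an immortalised line of macrophages grown from mouse bone marrow. RNA was sequenced in 3 libraries of cells carrying a short hairpin RNA against PGAM5 and in 3 libraries of cells carrying a short hairpin RNA against DRP1, the GTPase that divides mitochondria and is encoded by Dnm1l. Every library came from cells given IL-4 at 10 ng/ml for 24 h, so the groups share the cytokine and the line and differ in the hairpin. No library without IL-4 and none with a control hairpin was analysed here. The values therefore compare the knockdowns with each other and do not measure a response to IL-4. The titles number the libraries 1 to 3 without saying whether they were separate cultures or separate hairpins, and the spread behind every p-value is that of these libraries, possibly only technical.

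IL-4 binds IL4Rα, the product of Il4ra. The complex then recruits either the common gamma chain (Il2rg), forming the type I receptor that answers to IL-4 alone, or IL13Rα1 (Il13ra1), forming the type II receptor that answers to both IL-4 and IL-13. JAK1 sits on IL4Rα, JAK3 on the common gamma chain and TYK2 on IL13Rα1; these kinases phosphorylate the receptor and then STAT6, which dimerises, enters the nucleus and turns on genes of alternative macrophage activation, while insulin receptor substrates such as IRS2 carry a parallel signal to PI3 kinase. SOCS1 inhibits the JAKs, and SHP-1, the product of Ptpn6, removes phosphate from receptors, JAKs and STAT6.

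The libraries held 16111281 to 21933547 reads, recovered from the FPKM steps. Each targeted gene was lower in the group carrying its hairpin than in the other group. With no control hairpin, the silencing itself was not measured. Pgam5 read 4.91, 5.21 and 4.60 FPKM in the PGAM5 knockdown and 17.3, 17.1 and 17.2 in the DRP1 knockdown, 3.50-fold lower. Dnm1l read 17.2, 18.7 and 17.7 FPKM in the PGAM5 knockdown and 8.18, 7.42 and 7.12 in the DRP1 knockdown, 2.36-fold higher. PGAM5 knockdown library 3 stood apart within its group: compared read by read, its chi-square averaged 8.05 per gene against library 1 and 5.61 against library 2, and 2.65 to 3.26 for the other pairs within groups. Of 12 macrophage markers, 11 passed the filter, and the summed level was 4370 to 4573 FPKM in the PGAM5 knockdown against 5536 to 5564 in the DRP1 knockdown. Most of that gap lay in Lyz2 (means 1272 against 1954 FPKM) and Cd68 (501 against 682). Adgre1 (43.9 against 43.4) and Spi1 (193 against 191) were nearly level. By the limma test described in the next paragraph, 6 of the 11 tested fell, 54.5%, and none rose, against 11.7% of all genes tested that fell. Leaving out any 1 library gave 5 to 7 markers that fell. Adgre1 and Spi1 were among those that did not pass. Cd14 had the highest mean over all libraries, but in the DRP1 knockdown Lyz2 was above it (1954 against 1709 FPKM). Mertk was at or near 0. Among T and NK cell markers 6 of 8 had 0 reads in every library, with only Lck above the filter at 7.21 ± 0.149 and 6.88 ± 0.159 FPKM (SD, n = 3 libraries per group). No marker of B cells, neutrophils, mast cells, dendritic cells, fibroblasts or endothelium passed the filter. In bulk RNA, fewer cells of a kind and less RNA per cell cannot be told apart, and the part of the marker difference in the results below was not tested.

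Among the 9 genes that could be tested, Il13ra1 and Ptpn6 rose in the PGAM5 knockdown relative to the DRP1 knockdown, Il2rg fell, and 6 did not pass the test. The test was limma on log2(FPKM + 1), with Benjamini-Hochberg adjustment over all 10634 genes that passed the filter and a threshold of 0.05. Across all of these genes 2704 were called, 25.4%, of which 1464 were higher (13.8%) and 1240 lower (11.7%). The 3 calls among 9, 33.3%, are a share near that of all genes tested, and alone say nothing particular about these genes. The log2 differences given here are on that scale, PGAM5 knockdown minus DRP1 knockdown, and understate the change of genes with low values. The groups did not overlap for 4 of the 9 (Il13ra1, Ptpn6, Il2rg and Il4ra), against 4629 of all genes tested, 43.5%. The median difference over the 9 genes was 0.02 on the log2(FPKM + 1) scale and that of all genes tested was 0.0094. The median size of the difference without its sign was 0.18 over the 9 genes and 0.10 over all genes tested.

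**Figure D1:**
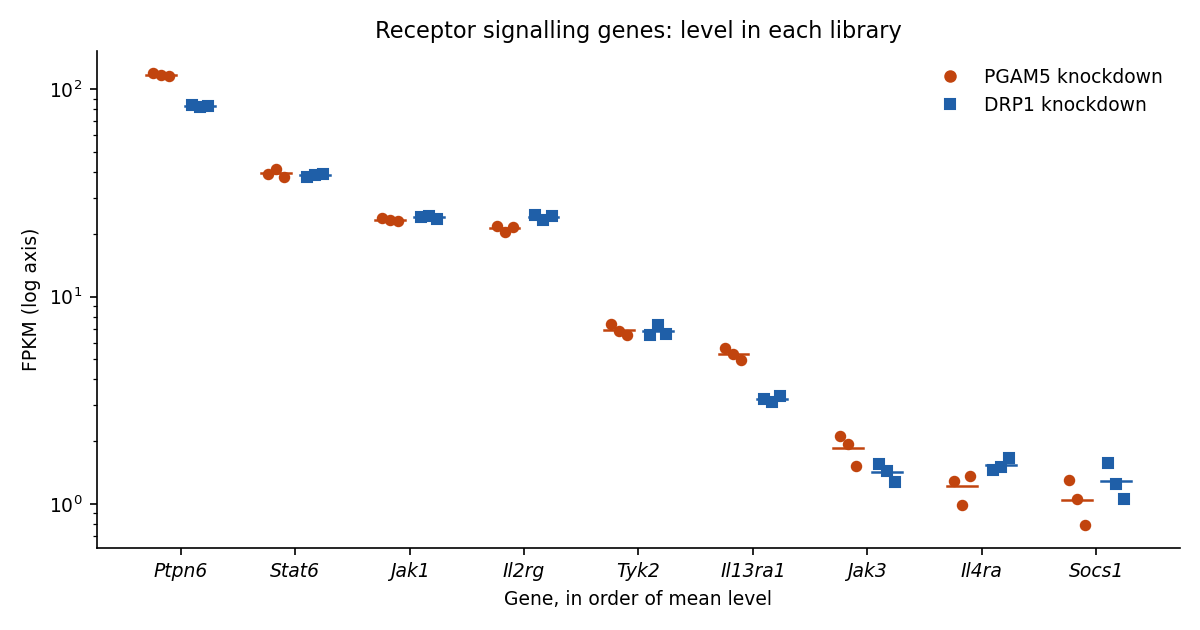
FPKM, on a log axis, of the 9 receptor signalling genes above the filter, from the most to the least abundant; points are libraries and short lines are group means of n = 3. Il13ra1 and Ptpn6 lie higher and Il2rg and Il4ra lower in all 3 PGAM5 knockdown libraries than in all 3 DRP1 knockdown libraries. Irs2, at 0 in every library, is not drawn.

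The stretches around the start sites of the 3 genes that passed the test are shown so that their base composition and the absence of STAT letters can be read directly. Each runs from 250 bases before to 50 bases after the start in RefSeq (GRCm38.p6), 300 bases, written 5′ to 3′ on the gene's strand. Il13ra1 is chrX:36111858-36112157 on the plus strand, Ptpn6 chr6:124738660-124738959 on the minus strand and Il2rg chrX:101268206-101268505 on the minus strand.
Il13ra1: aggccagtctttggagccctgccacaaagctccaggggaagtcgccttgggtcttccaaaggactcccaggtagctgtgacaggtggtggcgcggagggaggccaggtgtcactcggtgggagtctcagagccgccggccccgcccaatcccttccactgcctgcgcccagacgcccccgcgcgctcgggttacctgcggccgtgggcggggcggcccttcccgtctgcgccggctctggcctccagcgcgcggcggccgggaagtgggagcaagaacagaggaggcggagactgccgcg
Ptpn6: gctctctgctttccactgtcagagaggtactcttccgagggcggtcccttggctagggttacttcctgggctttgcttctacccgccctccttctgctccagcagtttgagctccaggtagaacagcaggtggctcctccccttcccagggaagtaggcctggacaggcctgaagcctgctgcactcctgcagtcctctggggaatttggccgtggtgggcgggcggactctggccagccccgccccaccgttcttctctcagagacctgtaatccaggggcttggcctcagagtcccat
Il2rg: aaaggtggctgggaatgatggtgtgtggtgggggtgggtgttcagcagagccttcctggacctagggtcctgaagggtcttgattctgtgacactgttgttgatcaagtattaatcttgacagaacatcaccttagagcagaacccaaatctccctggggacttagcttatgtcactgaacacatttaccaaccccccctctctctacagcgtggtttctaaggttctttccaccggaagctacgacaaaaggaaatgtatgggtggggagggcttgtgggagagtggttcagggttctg
The Il13ra1 window had 71.0% G and C with 28 CG pairs, the Ptpn6 window 61.7% with 8, and the Il2rg window 50.3% with 3. The median window had 52.7% and 7. Of the 10 genes, Il2rg alone lay below that median in G and C content, and the other 9, whatever their difference, had 54.3% to 72.0%. Each window was searched on both strands for TTCNNNNGAA, the spacing that STAT6 prefers, and for TTCNNNGAA, the spacing shared by the other STAT proteins and by BCL6. Both patterns read the same on either strand and cannot share a start. None of the 10 genes had either pattern, whereas 6.95% of the 32851 RefSeq windows had the first and 8.30% the second. This says only that these letters are not in these windows.

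The receptor chains that pair with IL4Rα moved in opposite directions. Il13ra1 (ENSMUSG00000017057, chromosome X, 36112110 to 36171259, plus strand, mm10) read 5.64, 5.30 and 4.94 FPKM in the PGAM5 knockdown and 3.21, 3.11 and 3.32 in the DRP1 knockdown. All 3 PGAM5 knockdown libraries lay above all 3 DRP1 knockdown libraries, from 1029 and 666 reads in all. The level rose 1.65-fold, a log2 difference of 0.58 (SE 0.058, 95% interval 0.44 to 0.71, limma adjusted p = 0.00058). Without PGAM5 knockdown library 3 the difference was 0.62 (limma adjusted p = 0.00096).

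Il2rg, the common gamma chain gene (ENSMUSG00000031304, chromosome X, 101264378 to 101268255, minus strand), read 21.9, 20.4 and 21.6 FPKM in the PGAM5 knockdown and 24.7, 23.4 and 24.4 in the DRP1 knockdown. Every PGAM5 knockdown library was below every DRP1 knockdown library. The level fell 1.14-fold, with a log2 difference of -0.18 (SE 0.04, 95% interval -0.27 to -0.08, limma adjusted p = 0.017). The call was lost without PGAM5 knockdown library 2 (limma adjusted p = 0.053), DRP1 knockdown library 1 (0.068) or DRP1 knockdown library 3 (0.066), with the difference between -0.20 and -0.15 whichever library was left out. Without PGAM5 knockdown library 3 it was -0.19 (limma adjusted p = 0.025). The exons of Il2rg share 728 bases, 30.5% of its exonic length, with the predicted same-strand gene Gm20489, which was listed at 0 FPKM in every library. The sources used here do not give how reads in the shared stretch were assigned, so the level of Il2rg is uncertain.

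Il4ra, the chain common to both receptors (ENSMUSG00000030748, chromosome 7, 125552120 to 125579474, plus strand), read 1.29, 0.990 and 1.36 FPKM in the PGAM5 knockdown and 1.46, 1.498 and 1.67 in the DRP1 knockdown. The groups did not overlap, but the highest PGAM5 knockdown library lay close to the lowest DRP1 knockdown library. The log2 difference of -0.20 (SE 0.09, 95% interval -0.41 to 0.01) did not pass the test (limma adjusted p = 0.15). The antisense gene Gm44876, at 0 FPKM in every library, shares 9.5% of the exonic length. Without PGAM5 knockdown library 2 the difference was -0.13. The gene had 384 and 520 reads in all, and no other setting brought the difference past the threshold. Il4ra was the receptor chain with the lowest level, and 5.3% of all genes tested had a lower mean.

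The balance of the chains within a library also differed between the knockdowns. The ratio of Il2rg to Il13ra1 FPKM was 3.89, 3.85 and 4.37 in the PGAM5 knockdown and 7.70, 7.55 and 7.37 in the DRP1 knockdown, 4.04 ± 0.29 against 7.54 ± 0.17 (SD, n = 3). The ratio of Il13ra1 to Il4ra was 4.36, 5.35 and 3.65 in the PGAM5 knockdown and 2.20, 2.08 and 1.98 in the DRP1 knockdown. In both ratios the groups stood well apart. The ratio of Il2rg to Il4ra was 17.8 ± 2.5 and 15.8 ± 1.2 (SD, n = 3), and here the groups overlapped. Ratios were given no test, since they are built from the same values as the single genes.

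**Figure D2:**
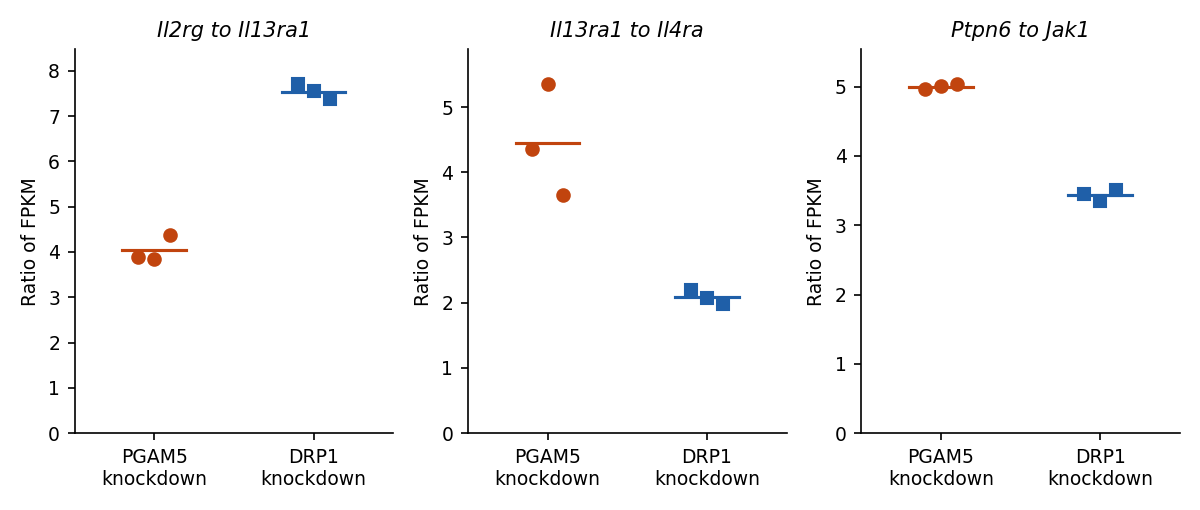
Ratios of FPKM within each library, 1 panel per ratio with its own axis starting at 0; points are libraries and horizontal lines are group means of n = 3. Il2rg to Il13ra1 is 3.85 to 4.37 in the PGAM5 knockdown and 7.37 to 7.70 in the DRP1 knockdown, and Ptpn6 to Jak1 is 4.96 to 5.03 against 3.35 to 3.51.

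None of the 3 receptor-bound kinases passed the test. Jak1, the kinase of IL4Rα (ENSMUSG00000028530, chromosome 4, 101152367 to 101265282, minus strand), read 24.0, 23.3 and 23.1 FPKM in the PGAM5 knockdown and 24.2, 24.4 and 23.6 in the DRP1 knockdown. The groups overlapped (difference -0.04, 95% interval -0.11 to 0.04, limma adjusted p = 0.47). Tyk2, the kinase of IL13Rα1 (ENSMUSG00000032175, chromosome 9, 21104068 to 21131243, minus strand), read 7.33, 6.83 and 6.54 FPKM in the PGAM5 knockdown and 6.50, 7.25 and 6.61 in the DRP1 knockdown. The libraries of both groups were interleaved (difference 0.02, SE 0.058, limma adjusted p = 0.83). Jak3, the kinase of the common gamma chain (ENSMUSG00000031805, chromosome 8, 71676296 to 71690575, plus strand), read 2.13, 1.95 and 1.52 FPKM in the PGAM5 knockdown and 1.55, 1.45 and 1.28 in the DRP1 knockdown. PGAM5 knockdown library 3 lay inside the range of the other group. The log2 difference was 0.24 (95% interval 0.0 to 0.47, limma adjusted p = 0.13), and without that library it was 0.33 (limma adjusted p = 0.036). The direction differs from that of Il2rg, the chain JAK3 sits on, but the difference between the genes was not tested. The exons of Jak3 share 7.5% of their length with Insl3 on the same strand, and those of Tyk2 8.1% with an antisense gene, both below the filter.

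Stat6, which encodes the transcription factor that the receptors activate (ENSMUSG00000002147, chromosome 10, 127642986 to 127660957, plus strand), read 38.9, 41.3 and 37.6 FPKM in the PGAM5 knockdown and 37.7, 38.6 and 39.1 in the DRP1 knockdown. All 3 DRP1 knockdown libraries lay within the range of the PGAM5 knockdown libraries. The log2 difference was 0.03 (SE 0.041, 95% interval -0.07 to 0.12, limma adjusted p = 0.66). These are transcript levels and carry no information on STAT6 phosphorylation. Irs2, the adaptor gene (ENSMUSG00000038894, chromosome 8, 10984681 to 11008458, minus strand), had 0 reads in all 6 libraries. A count of 0 allows up to 3 reads, 0.0216 to 0.0294 FPKM depending on the library, counting error only.

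Of the brakes, Ptpn6 rose and Socs1 did not pass the test. Ptpn6 (ENSMUSG00000004266, chromosome 6, 124720707 to 124738714, minus strand) read 119.2, 116.4 and 116.3 FPKM in the PGAM5 knockdown and 83.5, 81.6 and 83.0 in the DRP1 knockdown. Within each group the libraries lay close together, and the groups were far apart. The level rose 1.42-fold, a log2 difference of 0.50 (SE 0.026, 95% interval 0.44 to 0.56, limma adjusted p = 3.9e-05), and it was called in all 15 alternative settings. Without PGAM5 knockdown library 3 the difference was 0.51 (limma adjusted p = 0.00013). It rests on 17231 and 12915 reads in all, the most of the 10 genes. An antisense predicted gene, Gm20531, shares 195 exonic bases with it, 7.0% of its exonic length, and had 4 and 2 reads in all. The sources used here do not give whether counting used the strand, so reads of the 2 genes could not be separated in that stretch.

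Socs1 (ENSMUSG00000038037, chromosome 16, 10782240 to 10785536, minus strand) read 1.30, 1.05 and 0.789 FPKM in the PGAM5 knockdown and 1.58, 1.24 and 1.05 in the DRP1 knockdown. The groups overlapped (difference -0.16, 95% interval -0.46 to 0.13, limma adjusted p = 0.38). The difference was -0.07 without PGAM5 knockdown library 3, -0.08 without DRP1 knockdown library 1 and -0.25 without PGAM5 knockdown library 1. With 159 and 205 reads in all it was the least covered gene tested among the 10. The ratio of Ptpn6 to Jak1, a phosphatase gene against a receptor kinase gene, was 4.96, 5.00 and 5.03 in the PGAM5 knockdown and 3.45, 3.35 and 3.51 in the DRP1 knockdown. The groups stood apart in the direction of Ptpn6 itself.

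**Figure D3:**
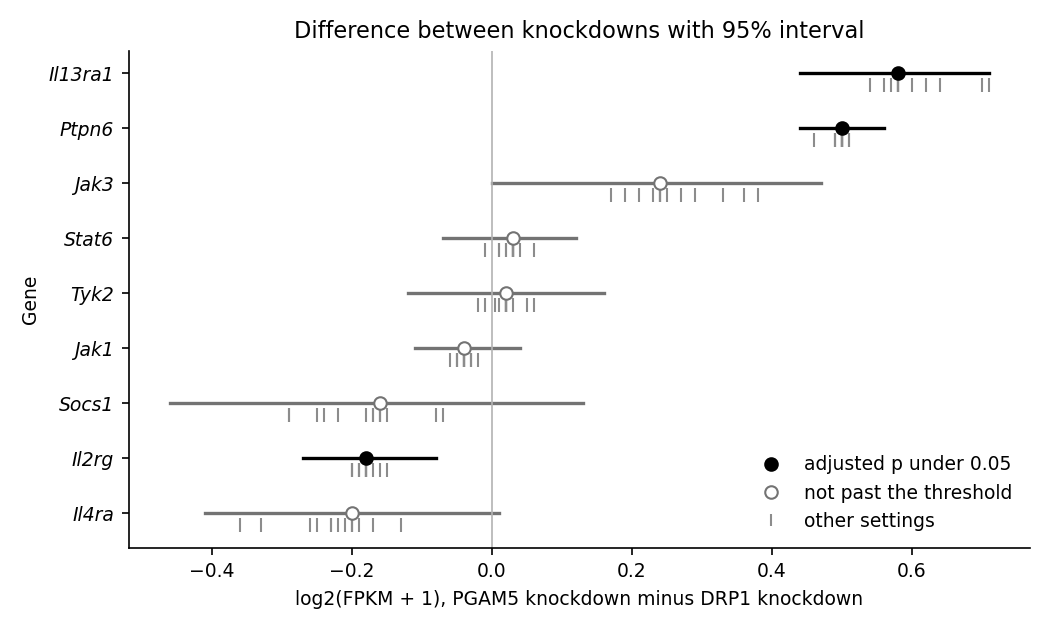
Log2(FPKM + 1) difference of the 9 tested receptor signalling genes, PGAM5 knockdown minus DRP1 knockdown; points are the limma estimates (filled where the adjusted p was under 0.05), bars their 95% intervals, and small ticks the estimates under the other settings. The intervals of Il13ra1 (0.44 to 0.71) and Ptpn6 (0.44 to 0.56) lie above 0, that of Il2rg (-0.27 to -0.08) lies below it, that of Jak3 has a lower end that rounds to 0.0, and the other 5 cross 0.

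FPKM is per length, so levels can be ranked between genes. Ptpn6 was highest in every library, followed by Stat6. Jak1 and Il2rg came next with overlapping levels, Jak1 above Il2rg in 4 of 6 libraries. Tyk2 and Il13ra1 followed in that order in every library. Jak3, Il4ra and Socs1 formed the low end without a fixed order, Jak3 above Il4ra in 4 of 6 libraries and Il4ra above Socs1 in 3 of 6. Irs2 was at 0. Against all genes tested, 95.1% had a lower mean than Ptpn6, 85.7% than Stat6, 41.6% than Tyk2, 28.6% than Il13ra1, 8.6% than Jak3 and 2.6% than Socs1. The subunit genes of a receptor complex were thus unequal in transcript: within the type I receptor, Il2rg stood far above Il4ra.

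Genes with the nearest pattern over the 6 libraries were ranked by the mean absolute distance of log2(FPKM + 1) values centred on each gene's own mean. For Il4ra these were Dnajb4 (distance 0.0095), Mettl17 (0.0182) and Ss18l2 (0.0243). For Stat6 they were Ccdc126 (0.0127), Ints1 (0.0157) and Tchp (0.0168), and for Socs1 Ripor1 (0.0368), Npat (0.0525) and Amigo3 (0.0533).

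Around the 10 genes, the other parts of the pathway were read from gene lists. None of 7 ligand genes for the common gamma chain and IL-13 receptors passed the filter, and 4 had 0 reads, Il13 among them. Il4 itself read 1.06, 1.10 and 1.07 FPKM in the PGAM5 knockdown and 0.911, 0.691 and 1.08 in the DRP1 knockdown, from 69 and 62 reads in all, and the groups overlapped. Of 7 other receptor genes of the family, 1 passed the filter. That gene, Il7r, whose product pairs with the common gamma chain to bind interleukin-7, read 8.90, 8.37 and 8.90 FPKM in the PGAM5 knockdown and 15.0, 15.2 and 14.9 in the DRP1 knockdown. The groups were widely separated and Il7r fell 1.72-fold (log2 difference -0.72, SE 0.039, limma adjusted p = 4.0e-05).

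Among 7 other JAK and STAT genes, 6 passed the filter, none rose and 2 fell (1 to 2 when any 1 library was left out). The share called, 33.3%, is near the 25.4% of all genes tested. Stat5b, a STAT used by other gamma chain cytokines, fell from 9.59 ± 0.208 to 7.99 ± 0.454 FPKM (SD, n = 3 each) between the DRP1 and the PGAM5 knockdown (log2 difference -0.24, limma adjusted p = 0.012). Jak2, the kinase of receptors such as those for growth hormone and interferon gamma, fell by 0.15 on the log2 scale (limma adjusted p = 0.047). That call held in 7 of 15 alternatives, and leaving out any 1 library other than DRP1 knockdown library 3 ended it (limma adjusted p = 0.066 to 0.15). Stat3 was the most abundant and did not pass (difference 0.02, limma adjusted p = 0.84). The list's median difference was -0.03.

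In the branch from insulin receptor substrates to PI3 kinase, 21 of 23 genes passed the filter, 1 rose, 3 fell and 17 did not pass the test. The share called was 19.0%, against 25.4% of all genes tested. Leaving out any 1 library gave 0 to 2 that rose and 1 to 3 that fell. Irs1 had 1 read in all libraries together, and neither Irs1 nor Irs2 was detectable at this depth. The list's median difference was -0.03. The catalytic subunit gene Pik3cd rose (10.0 ± 0.566 against 8.39 ± 0.474 FPKM, difference 0.23, limma adjusted p = 0.022), while Pik3cg, the catalytic subunit that answers to G protein-coupled receptors, fell (6.79 ± 0.543 against 8.37 ± 0.272 FPKM, difference -0.27, limma adjusted p = 0.015). Rps6kb1, the S6 kinase gene, fell by 0.20 on the log2 scale (limma adjusted p = 0.014). Pik3cd kept its call in 9 of 15 alternatives and lost it on leaving out library 1 or 2 of the PGAM5 group, or 2 or 3 of the DRP1 group (limma adjusted p = 0.056 to 0.074). Pik3cg did not pass when library 2 of the PGAM5 group (limma adjusted p = 0.051) or library 3 of the DRP1 group (0.059) was left out. The same held for Rps6kb1 on leaving out DRP1 knockdown library 1 (limma adjusted p = 0.051) or 2 (0.06). Grb2, the most abundant of the list, read 56.9 ± 3.42 and 57.4 ± 1.85 FPKM (n = 3) and did not pass.

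Of 23 other brakes (SOCS proteins, phosphatases, ubiquitin ligases and related regulators), 21 passed the filter, 3 rose, 1 fell and 17 did not pass the test. Here too 19.0% were called, against 25.4% of all genes tested. Leaving out any 1 library gave 1 to 4 that rose and 1 to 2 that fell. The list's median difference was 0.06. Usp18, which removes the ubiquitin-like ISG15 and blocks the type I interferon receptor, read 10.9, 11.6 and 11.8 FPKM in the PGAM5 knockdown and 4.29, 4.84 and 5.20 in the DRP1 knockdown. Every PGAM5 knockdown library was above every DRP1 knockdown library, and Usp18 rose 2.39-fold (log2 difference 1.11, SE 0.066, limma adjusted p = 5.8e-05). Usp18 is better known as an interferon brake than as an IL-4 brake. Rnf128, a ubiquitin ligase gene, fell from 15.2 ± 0.206 in the DRP1 knockdown to 10.5 ± 0.452 FPKM in the PGAM5 knockdown (difference -0.49, limma adjusted p = 0.00026). Ptpn11, the gene of SHP-2, a phosphatase related to SHP-1, rose by 0.14 on the log2 scale (limma adjusted p = 0.036), a call kept in 6 of 15 alternatives and in none that left out a library other than PGAM5 knockdown library 3 (limma adjusted p = 0.06 to 0.11). Dusp4 was the most abundant brake, at 323.5 ± 20.3 and 327.7 ± 3.57 FPKM, and did not pass.

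**Figure D4:**
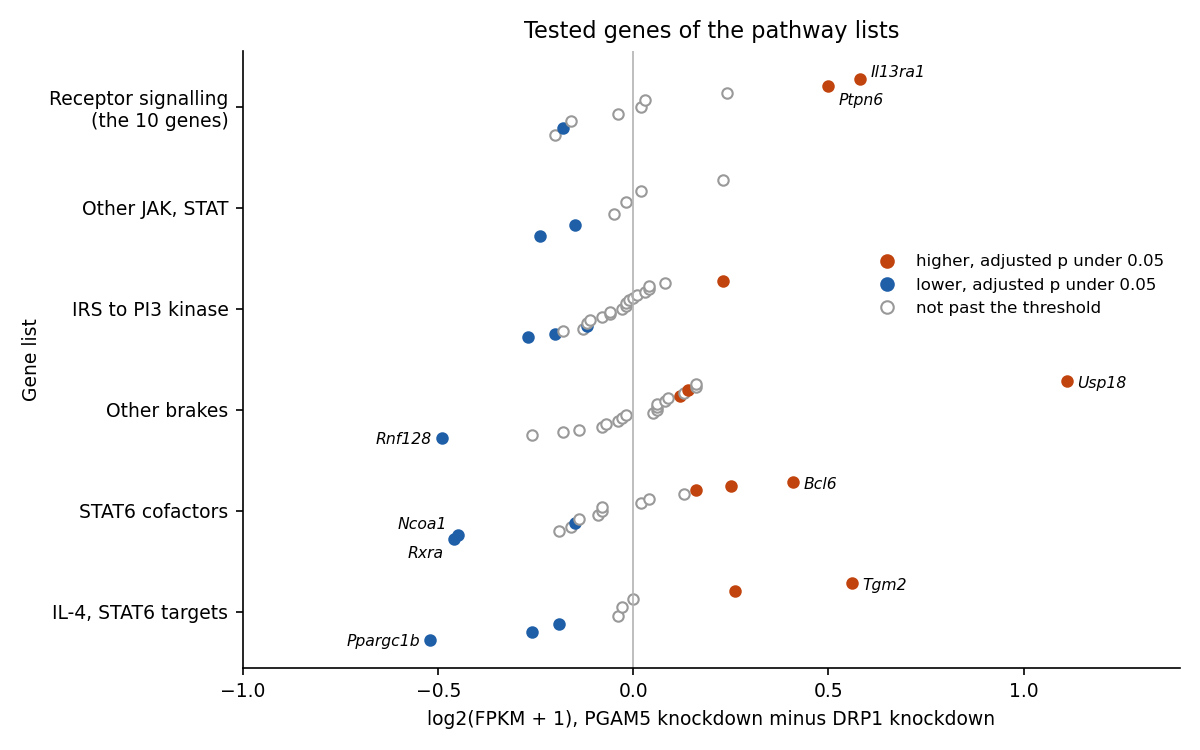
Log2(FPKM + 1) difference of the tested genes of 6 lists, PGAM5 knockdown minus DRP1 knockdown. The lists are the receptor signalling genes, other JAK and STAT genes, the PI3 kinase branch, other brakes, STAT6 cofactors with other nuclear factors, and targets. Each point is a gene, ordered by its difference within its list, and filled points passed the limma threshold. Usp18 (1.11), Il13ra1 (0.58), Tgm2 (0.56) and Ptpn6 (0.50) lie farthest to the right, and Ppargc1b (-0.52) and Rnf128 (-0.49) farthest to the left. Il7r (-0.72), of the other receptors, is not drawn.

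A list of 18 genes held STAT6 cofactors together with other nuclear factors, the repressor gene Bcl6 among them, and not all are partners of STAT6. Of these 18, 15 passed the filter, 3 rose and 3 fell, with a median difference of -0.08. The share called was 40.0%, against 25.4% of all genes tested, in a list chosen with earlier results of these data known. Leaving out any 1 library gave 2 to 4 in each direction. Bcl6, a repressor that binds the same kind of DNA element as STAT6, read 29.5, 29.4 and 29.4 FPKM in the PGAM5 knockdown and 22.04, 22.01 and 21.67 in the DRP1 knockdown. The groups were far apart, with SDs of 0.0229 and 0.207 FPKM (n = 3), and Bcl6 rose 1.34-fold (log2 difference 0.41, SE 0.028, limma adjusted p = 0.00011). Stat6 did not pass the test, and the ratio of Bcl6 to Stat6 was 0.757, 0.712 and 0.783 in the PGAM5 knockdown and 0.584, 0.570 and 0.554 in the DRP1 knockdown, without overlap. Rxra, a nuclear receptor that pairs with PPARγ, fell from 3.97 ± 0.0408 to 2.62 ± 0.271 FPKM (difference -0.46, limma adjusted p = 0.003). Ncoa1, a coactivator of STAT6, fell from 7.44 ± 0.2 to 5.20 ± 0.508 FPKM (difference -0.45, limma adjusted p = 0.0031). Pparg had 0 reads in every library. Cebpb, a transcription factor of macrophages and the most abundant of the list, fell by 0.15 on the log2 scale (398 ± 11.9 against 440 ± 11.7 FPKM, limma adjusted p = 0.018), a call lost in 4 of 15 alternatives, among them without DRP1 knockdown library 2 (0.063) or 3 (0.074).

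Bcl6 is shown because its promoter windows held the TTCNNNGAA pattern, which none of the 10 receptor genes had. Of the other pathway genes only Bcl6 and Il7r, both called, were looked up singly, so the rest of the lists was not compared. The pattern was also in the window of Il7r, which fell, once, as TTCAGGGAA at 142 bases before the start. For Bcl6, RefSeq gives 2 windows. The window chr16:23981234-23981533 on the minus strand (GRCm38.p6) held 3 matches, in capitals, and the other held 1.
Bcl6: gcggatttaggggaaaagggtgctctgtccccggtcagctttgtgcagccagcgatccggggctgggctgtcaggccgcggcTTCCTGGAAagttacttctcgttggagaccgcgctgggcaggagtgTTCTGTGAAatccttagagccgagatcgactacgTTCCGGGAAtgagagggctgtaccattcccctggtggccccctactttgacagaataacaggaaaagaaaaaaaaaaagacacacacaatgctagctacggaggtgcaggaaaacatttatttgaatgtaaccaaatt
The matches TTCCTGGAA, TTCTGTGAA and TTCCGGGAA began 168, 122 and 88 bases before the start. A match is a description of the letters and was not measured as a binding site here.

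Genes known as IL-4 and STAT6 targets were mostly below the filter. Of 31, 8 passed and 23 did not, and 10 had 0 reads in all libraries, among them Retnla, Chil3 and Ccl17, textbook markers of IL-4 activation in mouse macrophages. Of the 8 tested, 2 rose and 3 fell, with a median difference of -0.04. The share called was 62.5%, against 25.4% of all genes tested. With only 8 genes, from a list chosen with earlier results of these data known, that share alone says nothing particular. Leaving out any 1 library gave 1 to 2 that rose and 2 to 3 that fell. Tgm2, a transglutaminase, read 2.61, 2.77 and 2.10 FPKM in the PGAM5 knockdown and 1.28, 1.17 and 1.68 in the DRP1 knockdown. The groups did not overlap and Tgm2 rose 1.81-fold (log2 difference 0.56, SE 0.11, limma adjusted p = 0.01).

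**Figure D5:**
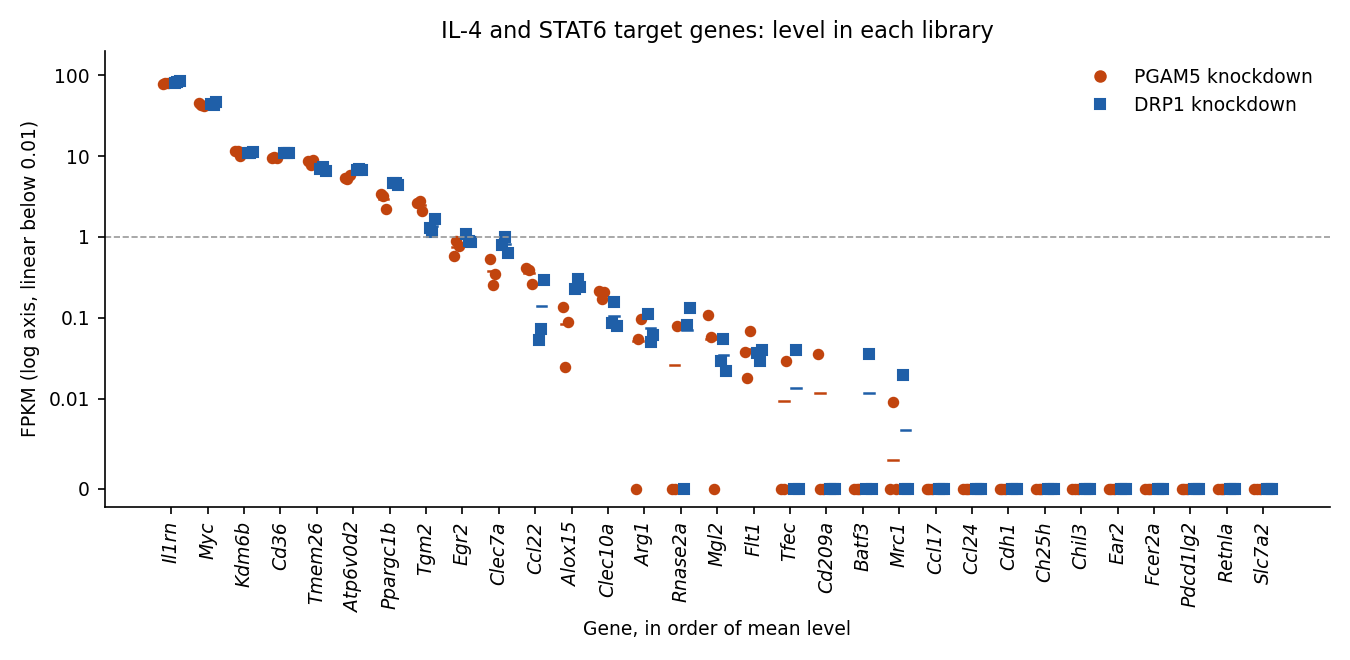
FPKM of all 31 IL-4 and STAT6 target genes in each library, from the most to the least abundant, on an axis that is logarithmic above 0.01 FPKM and linear below it; points are libraries, short lines are group means of n = 3, and the dashed line is the filter of 1 FPKM. The 8 genes at the left lie above the filter, and the 10 at the right are at 0 in every library.

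In the other direction, Ppargc1b, a coactivator of mitochondrial gene expression, read 3.39, 3.18 and 2.24 FPKM in the PGAM5 knockdown and 4.68, 4.66 and 4.41 in the DRP1 knockdown. PGAM5 knockdown library 3 was the lowest, and the groups did not overlap (log2 difference -0.52, SE 0.11, limma adjusted p = 0.014). The call was kept in 11 of 14 alternatives and lost without DRP1 knockdown library 1 (0.05) or 2 (0.051). Atp6v0d2, a proton pump subunit of macrophages and osteoclasts, fell from 6.74 ± 0.151 to 5.47 ± 0.268 FPKM (difference -0.26, limma adjusted p = 0.0077). Il1rn, the interleukin-1 receptor antagonist and the most abundant of the 8, read 79.5 ± 0.759 and 82.0 ± 1.99 FPKM and did not pass (difference -0.04, limma adjusted p = 0.31). The tested target genes thus had members called in both directions.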

How the data were processed

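Libraries were made from poly-A RNA, per the labels' protocols. The authors deposited 1 FPKM value per gene and library, with HISAT2 2.0.5, featureCounts 1.5.0-p3 and mm10 named in the submitters' processing notes. The sources used here do not give the formula, annotation release or strand setting. Symbols, coordinates and exonic lengths came from GENCODE M21 (54495 of 54532 identifiers matched). FPKM times length gave whole reads (tolerance 0.02) for 96.1% of values above 0 in every library, which gave the depths; floors are 3 reads. Groups follow the titles. Differences, PGAM5 minus DRP1 knockdown, were tested two-sided with limma 3.58.1 (R 4.3.3, trend) on log2(FPKM + 1), which understates low genes, for genes with mean FPKM of at least 1; an exact permutation test with 3 against 3 libraries cannot go below p = 0.1. Named genes were all 10 members, the targeted genes, per pathway list the most abundant gene and up to 3 called genes with the largest difference, and per cell type list the most abundant gene. Other genes named were chosen after their values were seen. The members and lists were chosen with earlier results of these data known. The 15 alternatives changed the pseudocount, filter, trend, scaling, method, block or library set. Near copies were searched with blastn 2.17.0. The fit was also run on simulated reads with few changed genes and 1 fixed spread. That setting differs from these libraries, so it does not check the calls made here.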

Additional observations from a re-analysis of the deposited data

How the results depend on the processing

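Of 42 named genes tested, 21 were called, against 25.4% of all genes tested. Many were named because they were called with a large difference, so neither this share nor the steadiness of the calls speaks for all genes. Of the 21, 13 kept direction and call in each of the 15 alternatives that gave them a value, and none reversed. With a mean FPKM of at least 5 required, Il4ra, Il13ra1, Jak3 and Socs1 gave no value and 1 receptor signalling gene was higher. Leaving out 1 library in turn gave 2 to 3 receptor signalling genes higher and 0 to 1 lower, and 980 to 1456 higher and 819 to 1287 lower among all genes. Without length correction, recovered reads of Il2rg to Il13ra1 stood at 2.60 in the PGAM5 and 4.85 in the DRP1 knockdown. For the ratio of FPKM, 4.04 and 7.54, leaving out 1 library gave 3.87 to 4.13 and 7.46 to 7.63. Uncalled differences crossed 0 on leaving out 1 library: Tyk2 -0.02 to 0.06, Stat6 -0.01 to 0.06, Stat3 -0.03 to 0.05, Grb2 -0.06 to 0.01, Dusp4 -0.06 to 0.03, Ccdc126 -0.02 to 0.03, Ints1 -0.0005 to 0.04, Tchp -0.02 to 0.04 and Amigo3 -0.12 to 0.06. Same-numbered libraries showed no shared deviation (correlations 0.021, 0.031 and -6.1e-05, not every library closest to its own number), so the numbers were not taken to pair them; with the replicate block, 1161 genes were higher and 972 lower, with 2 receptor signalling genes higher and 1 lower. With 159 and 205 reads for Socs1, 384 and 520 for Il4ra and 0 for Irs2, depth limits these genes most.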

Other observations

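Of the pathway genes below the filter, 7 had groups that did not overlap, with no test. Their reads in all ran from 41 for Il15 to 874 for Parp14. The read totals given here are not scaled to depth, which differed between libraries. Of these 7, 6 were lower and 1 higher in the PGAM5 knockdown. The matching share over all genes below the filter was not taken, so neither the count nor its direction can be judged. The higher one was Clec10a, a lectin gene among the IL-4 targets, with 30 and 17 reads in the PGAM5 and DRP1 knockdown. Il21r, a receptor chain that pairs with the common gamma chain, had 28 reads over the PGAM5 knockdown libraries and 85 over the DRP1 knockdown libraries. Il15, the gene of another gamma chain cytokine, had 10 and 31. Cish, a SOCS family member induced by STAT5, had 123 and 202 reads, and its levels were 0.367 ± 0.0691 and 0.562 ± 0.0756 FPKM (SD, n = 3). Clec7a, the gene of the receptor Dectin-1, had 53 and 117 reads, Alox15, a lipoxygenase gene, 11 and 35, and Parp14, a STAT6 cofactor gene, 388 and 486. The IL-13 decoy receptor gene Il13ra2 had 17 and 28 reads, and its groups overlapped. All of these genes were chosen after their values were seen.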
